A study of Mus musculus with 6 samples.

Results

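Endothelial genes, the genes that the cells lining blood and lymph vessels use, were measured in palates dissected from mouse embryos at E13.5. The set held 33 genes picked by name, though earlier results of these data were known when they were chosen. Each was taken by every probe set that the platform annotation pairs with that gene alone. They were read by 55 of the 45037 probe sets tested, and made up 33 of the 18193 genes that had a probe set of their own. Every palate lacked Fzd1 (Fz1-/-), so the control was itself a mutant. The 3 control arrays carried Fz1-/-;Fz2+/+ RNA (here Fz1-null), and the 3 others Fz1-/-;Fz2-/- RNA (here double-null), all on a C57BL6/129 mixed background and of mixed gender per the labels. No wild-type palate was compared. The labels do not say whether embryos were pooled or shared a litter, so the spread between arrays may be partly technical. Each group carries the numbers 1 to 3, and arrays that share a number are called a pair.

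Endothelial cells form a sheet joined by VE-cadherin (Cdh5) and claudin 5 (Cldn5), and they grow in response to VEGF through the receptor kinase VEGFR2 (Kdr), while VEGFR1 (Flt1) largely holds ligand back, with VEGFR3 (Flt4) serving mainly lymph vessels. Angiopoietins act on them through Tie2 (Tek), and their identity is kept by ETS factors such as Erg and Fli1 and by the SoxF factors Sox7, Sox17 and Sox18. Frizzled receptors and Wnt ligands are known to act in vessel growth of the brain and retina, and the palatal shelf is a vascularised mesenchyme covered by epithelium.

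The genotype and 2 arrays need to be known before the values. Fzd2 lay lower in every double-null array, at a log2 value of 10.20 to 10.53 against 11.46 to 11.64 in Fz1-null arrays by its brightest probe set. The labels do not give the part of Fzd2 that was deleted, nor where its probes lie relative to it. Double-null array 2 stood apart in Xist, the RNA of the inactive X chromosome, which read 7.49 there and 11.76 to 12.74 on the other 5 arrays by its brightest probe set, although all samples are labelled mixed gender. Double-null array 3 stood apart in muscle: 14 skeletal muscle genes had a mean log2 level of 9.25 there and 8.37 to 8.61 elsewhere. Several results are also given without either array. Palate mesenchyme genes such as Osr2 and Prrx1 had a mean log2 level of 11.53 to 11.84 over 8 genes. RMA values carry no call of presence. Of the 55 endothelial probe sets, 44 had a mean above 7.24, the median of all probe sets. By brightest probe set, a choice that favours high values, it was 30 of the 33 genes. The exceptions were Vwf, Lyve1 and Esm1.

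No endothelial gene passed the test between the genotypes. By limma, with p adjusted across the 45037 probe sets tested, 0 of the 55 probe sets had an adjusted p under 0.05, beside 0 (0%) of all probe sets. Fzd2 itself did not pass in this fit, with an adjusted p of 0.217 by its brightest probe set. With the pair as a block 0 of the 55 passed again, beside 3 (0.00666%) of all, each a probe set of Fzd2. The smallest adjusted p of a member was then 0.966. At an unadjusted p under 0.05 lay 1 endothelial probe set, that of Cldn5, on the higher side, beside 0.691% of all probe sets, and 0 on the lower side, beside 0.266%. The blocked fit put 5 on the higher side, beside 2.77% of all, and 0 on the lower side, beside 1.94%. Those 5 were Clec14a, Cldn5, Vwf, Sox7 and Gpihbp1.

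More members lay higher than lower by mean, by small amounts. By brightest probe set, 26 of 33 genes had a higher mean in double-null palates, beside 45.7% of all genes, and their median log2 difference (double-null minus Fz1-null) was 0.05, beside -0.01 over all genes. Differences ran from -0.11 for Apln to 0.29 for Vwf, and the largest corresponds to 1.23-fold. In bulk tissue, more endothelial cells and more RNA per endothelial cell cannot be told apart. Neither was set apart from variation between arrays, since no endothelial probe set passed the test.

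The pair numbered 2 carried most of it. There 29 of 33 genes were higher, beside 48.0% of all genes, with a median of 0.15. In the pair numbered 1, 19 of 33 were higher, beside 48.4%, with a median of 0.02, and in the pair numbered 3, 16 of 33, beside 46.7%, with a median of -0.005. Without the pair numbered 2, 18 of 33 were higher, beside 45.9% of all genes, and the median was 0.004. Leaving out double-null array 2 alone also gave 18 of 33, beside 46.4%, with a median of 0.02. Leaving out double-null array 3, which stood apart in muscle, gave a median of 0.07. Repeating the quantile normalisation on the values moved the count the other way, to 31 of 33, with a median of 0.08. The share of all genes under that setting was not counted, so this count has no such figure beside it.

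**Figure D1:**
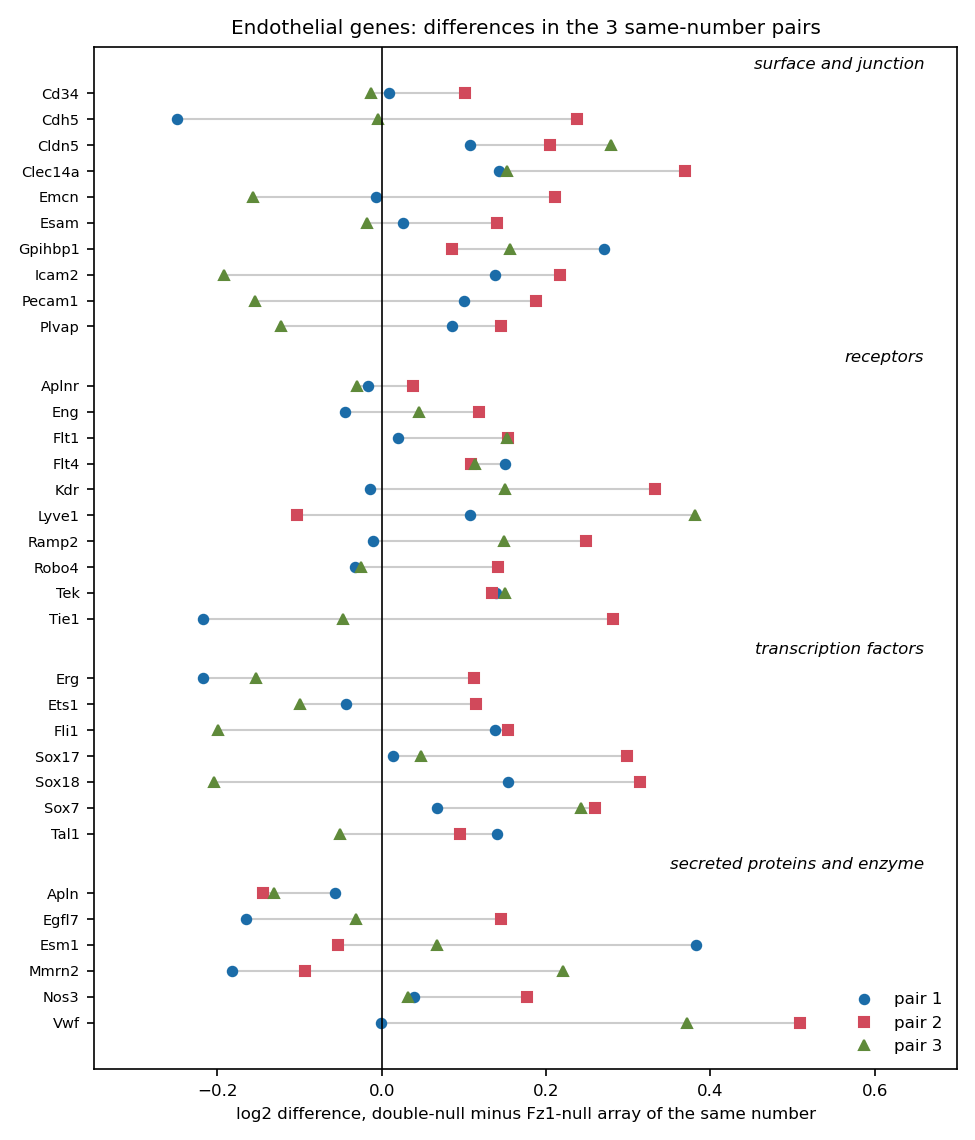
Log2 difference between the double-null and the Fz1-null array of the same number for each of the 33 endothelial genes, by brightest probe set and grouped by role, with 1 symbol for each pair and a grey line over their range. The squares of the pair numbered 2 lie right of 0 for 29 of 33 genes, while the circles and triangles fall on either side.

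The level of the whole set on each array shows the same. The mean log2 level over the 33 genes was 8.47, 8.50 and 8.53 on Fz1-null arrays 1 to 3 and 8.50, 8.66 and 8.57 on double-null arrays 1 to 3. The groups overlapped, since double-null array 1 was level with Fz1-null array 2 and below Fz1-null array 3, and double-null array 2 was the highest. The group means were 8.50 ± 0.03 and 8.57 ± 0.08 (SD, n = 3 each). Double-null array 2 was the highest of the 6 arrays for 18 of 33 endothelial genes, beside 15.0% of all genes.

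**Figure D2:**
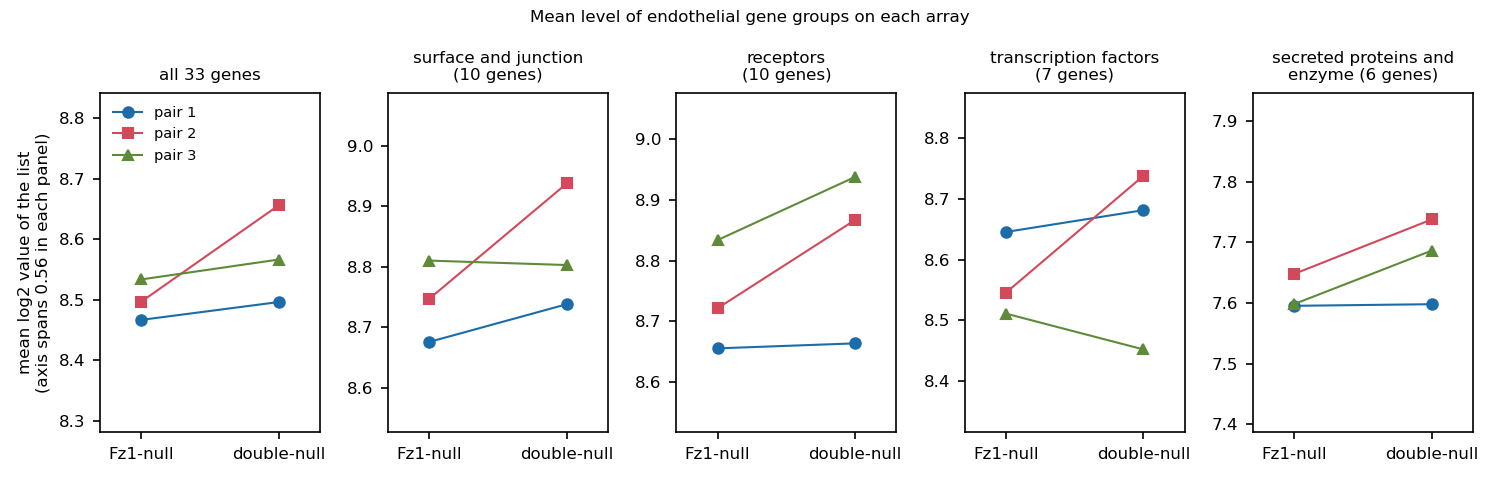
Mean log2 level of all 33 endothelial genes and of their 4 role groups on each array, with a line joining the arrays of a pair and every axis spanning the same width. The line of the pair numbered 2 runs upward in each panel, and the transcription factors are the panel in which the pair numbered 3 goes down most, from 8.51 to 8.45.

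Surface and junction genes were higher by mean in 9 of 10 members, with a median log2 difference of 0.05. In the pair numbered 2 all 10 were higher, in the pair numbered 1 it was 8, and in the pair numbered 3 it was 3. Without double-null array 2, 4 of the 10 were higher by mean, and without the pair numbered 2 the median was -0.01. Cldn5, the main claudin of tight junctions in vessels, read 9.09, 9.09 and 9.11 on Fz1-null arrays 1 to 3 and 9.19, 9.30 and 9.39 on double-null arrays 1 to 3. All double-null arrays lay above all Fz1-null arrays, and the Fz1-null arrays were nearly equal. Its log2 difference was 0.20 (SE 0.08, 95% interval 0.01 to 0.38, 1.15-fold) with an unadjusted p of 0.0374 by limma, and it did not pass (adjusted p = 1.00, and 0.966 with the block). In the authors' deposited table, where the sign runs the other way, Cldn5 has a log2 fold change of -0.20 and an unadjusted p-value of 0.0709.

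Groups that did not overlap were found for 2 of 55 endothelial probe sets (3.64%) on the higher side, Cldn5 and Tek. That is near the share of all probe sets, 2.79%. On the lower side it was 0, beside 1.73%. In all 3 pairs 16 of 55 probe sets were higher, beside 11.6% of all, and 2 were lower, beside 12.9%. Counted by gene, by brightest probe set, 9 of 33 were higher in all 3 pairs, beside 11.0%, and 1 was lower, beside 14.0%. The 9 were Cldn5, Clec14a, Gpihbp1, Flt1, Flt4, Tek, Nos3, Sox7 and Sox17, and the 1 was Apln.

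Clec14a, a lectin-like surface protein of growing vessels, read 8.04, 8.05 and 8.25 on Fz1-null arrays and 8.18, 8.42 and 8.40 on double-null arrays. The groups overlapped in 1 array each, because Fz1-null array 3 lay above double-null array 1. The log2 difference was 0.22 (SE 0.10, 95% interval -0.01 to 0.46), and the dimmer probe set differed by 0.13 (SE 0.10). Gpihbp1, which anchors lipoprotein lipase in capillaries, was 0.17 higher by mean (SE 0.11), and by pair 0.27, 0.09 and 0.16 higher.

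Pecam1 and Cdh5 had mean differences near 0 with double-null arrays on either side. Pecam1 (CD31), an adhesion molecule of endothelial cells and also of platelets and some leukocytes, read 8.36, 8.31 and 8.41 on Fz1-null arrays and 8.46, 8.50 and 8.25 on double-null arrays. Its lowest and highest array were both double-null, and the difference was 0.04 (SE 0.09, 95% interval -0.16 to 0.25), and -0.004 without double-null array 2. Cdh5 read 9.17, 9.20 and 9.21 on Fz1-null arrays and 8.92, 9.43 and 9.21 on double-null arrays. The Fz1-null arrays were tightly grouped and the double-null arrays lay below, above and among them, so the mean differed by -0.01 (SE 0.13). Its pair differences were -0.25, 0.24 and -0.005, and the other probe set of Cdh5 repeated that order at -0.19, 0.28 and 0.04.

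Emcn, the sialomucin endomucin of veins and capillaries, read 9.29, 9.16 and 9.32 on Fz1-null arrays and 9.29, 9.37 and 9.16 on double-null arrays, a difference of 0.02 (SE 0.09). The groups covered nearly the same range. The remaining surface genes had differences of 0.05 for Esam and Icam2, adhesion molecules of the junction, 0.04 for Plvap, the diaphragm protein of fenestrated vessels, and 0.03 for Cd34. Their SE was 0.10 to 0.11, and each was higher in 2 of 3 pairs.

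Receptors were also higher by mean in 9 of 10 members, with a median difference of 0.12, and here the pair numbered 3 took part: 4, 9 and 7 of 10 were higher in pairs 1 to 3. Without double-null array 2, 6 of the 10 were higher by mean, and without the pair numbered 2 it was 7, with a median of 0.07. Kdr, the main VEGF receptor, read 9.41, 9.19 and 9.71 on Fz1-null arrays and 9.40, 9.53 and 9.86 on double-null arrays. The spread within each group, SD 0.26 and 0.24, was larger than the difference of 0.16 (SE 0.16, 95% interval -0.22 to 0.53). Kdr was highest in the arrays numbered 3 of either genotype. Its difference was 0.02 without double-null array 3, 0.03 without Fz1-null array 2 and 0.29 without Fz1-null array 3. Flt1, a VEGF receptor that holds ligand back, read 7.96, 8.07 and 8.21 on Fz1-null arrays and 7.98, 8.23 and 8.37 on double-null arrays. Its values followed the array number in both groups, and the difference was 0.11 (SE 0.12), with 0.05 to 0.15 over its 4 probe sets. By the brightest it was 0.02 when double-null array 3 was left out, and it was 0.22 without double-null array 1.

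Tek was the steadiest of the set. It read 8.26, 8.19 and 8.22 on Fz1-null arrays and 8.40, 8.32 and 8.37 on double-null arrays, with no overlap. The pair differences were 0.14, 0.13 and 0.15, the mean 0.14 (SE 0.07, 95% interval -0.02 to 0.31), and leaving out any array kept it between 0.12 and 0.16. The test was not passed (unadjusted p = 0.0813 by limma, adjusted p = 1.00). The authors' deposited table gives Tek an unadjusted p-value of 0.0109, which after adjustment over all probe sets is 1.00. Tek was the 1 of 55 endothelial probe sets under 0.05 there, beside 1.81% of all probe sets. Tie1, the related receptor that modulates Tek signalling, read 8.12, 8.16 and 8.34 on Fz1-null arrays and 7.90, 8.44 and 8.30 on double-null arrays. Like Cdh5 it had the lowest and the highest array within the double-null group, with pair differences of -0.22, 0.28 and -0.05 and a mean of 0.01 (SE 0.14). Centring the arrays on their medians turned that mean to -0.0007.

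Among the other receptors, Ramp2, a partner of the adrenomedullin receptor, differed by 0.13 (SE 0.16). For the TGF-beta co-receptor Eng the brighter probe set gave 0.04 (SE 0.14) and the dimmer 0.10 (SE 0.14). Robo4, a guidance receptor that steadies vessel walls, differed by 0.03 (SE 0.09). Aplnr, the apelin receptor, differed by -0.003 (SE 0.10) and its other probe set by -0.006.

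**Figure D3:**
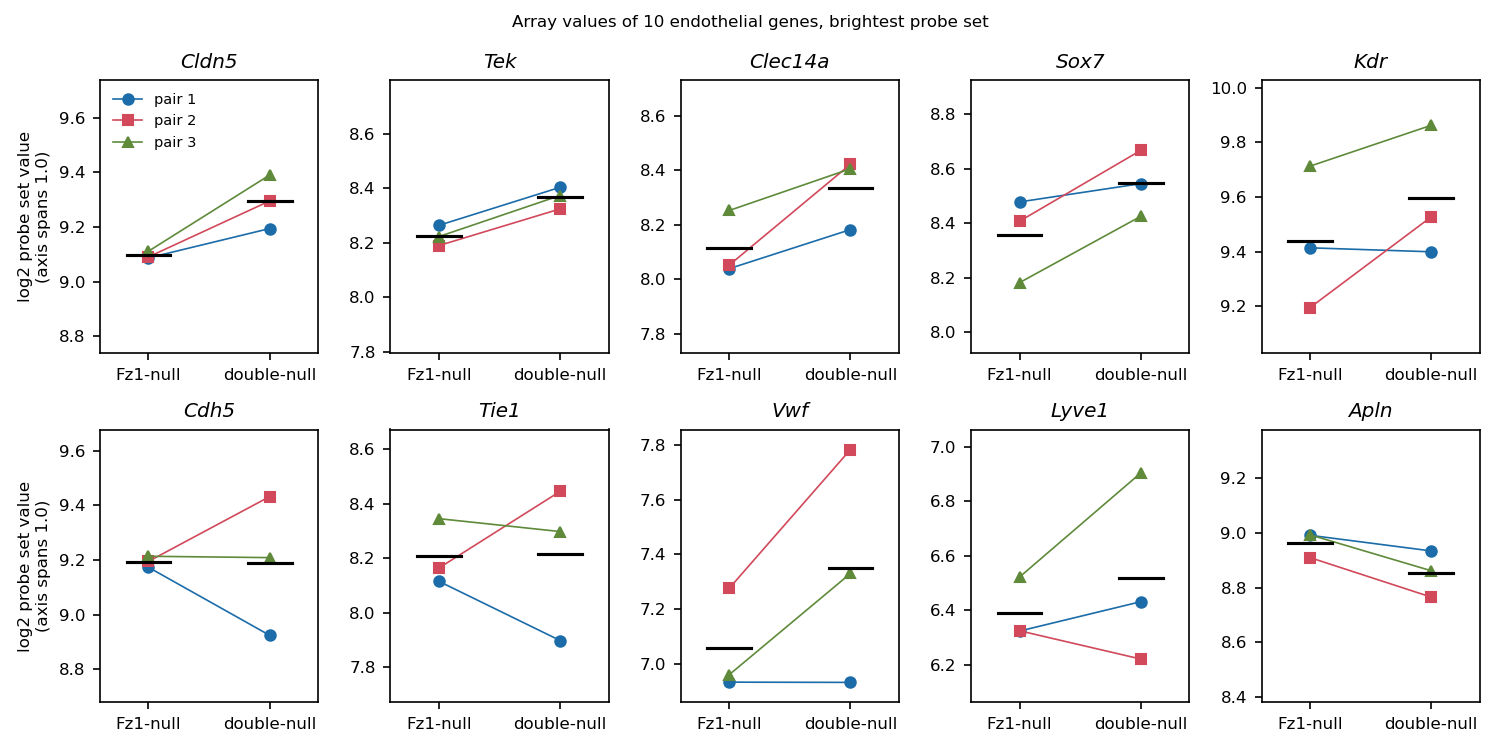
Log2 values of 10 endothelial genes on each array, by brightest probe set, with a thin line joining the arrays of a pair and a black bar at each group mean; every axis spans 1.0. Cldn5 and Tek show groups that do not overlap, Cdh5 and Tie1 show double-null arrays spread on either side of the Fz1-null arrays, and Apln goes down in each pair.

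By brightest probe set the lymphatic members Lyve1 and Flt4 averaged log2 differences of 0.13, 0.003 and 0.25 in pairs 1 to 3. Lyve1, a hyaluronan receptor of lymph vessels that tissue macrophages also carry, read 6.32, 6.32 and 6.52 on Fz1-null arrays and 6.43, 6.22 and 6.90 on double-null arrays. Double-null array 3 was the highest and double-null array 2 the lowest, and the difference of 0.13 (SE 0.17) turned to -0.06 without double-null array 3. The other Lyve1 probe set had pair differences of -0.003, -0.002 and 0.32, with a mean of 0.10 (SE 0.13). The 13 macrophage genes had pair medians of -0.01, 0.15 and 0.02, and their part in the Lyve1 value was not tested. Flt4 read 8.12, 8.35 and 8.34 on Fz1-null arrays and 8.27, 8.46 and 8.46 on double-null arrays. By this probe set it was higher in each pair, by 0.15, 0.11 and 0.11, although the groups overlapped, and its mean difference was 0.12 (SE 0.10). The other Flt4 probe set had pair differences of -0.06, 0.15 and 0.12, with a mean of 0.07 (SE 0.11).

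Prox1, the transcription factor that sets lymphatic fate and that neurons and muscle also use, read 4.32, 4.77 and 4.43 on Fz1-null arrays and 4.57, 4.87 and 5.03 on double-null arrays. Among the vessel growth genes, a separate list, it had the smallest p of those higher by mean. These values lie near the bottom of the scale, where 10% of probe sets have a mean below 4.62, so the size of the difference is uncertain. It was 0.32 on the log2 scale (SE 0.15, unadjusted p = 0.0768 by limma, adjusted p = 1.00), and its pair differences were 0.25, 0.10 and 0.60. The pair numbered 3, where Prox1 and Lyve1 differed most, is the pair in which skeletal muscle genes had a median difference of 0.77, and the part of muscle in the Prox1 value was not tested. Pdpn, a lymphatic gene that other tissues express too, differed by 0.07 (SE 0.08).

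Genes of tip cells, the leading cells of a growing sprout, had no common direction. Apln, the apelin ligand, read 8.99, 8.91 and 8.99 on Fz1-null arrays and 8.93, 8.77 and 8.86 on double-null arrays. It was the 1 member lower in all 3 pairs, by 0.06, 0.14 and 0.13 on the log2 scale in size, and the mean difference was -0.11 (SE 0.08, 95% interval -0.29 to 0.07, adjusted p = 1.00). Esm1, a secreted proteoglycan, read 4.39, 4.45 and 4.37 on Fz1-null arrays and 4.77, 4.40 and 4.44 on double-null arrays. These values lie near the bottom of the scale, as for Prox1, and only double-null array 1 stood above the others. Cd34, a sialomucin that some mesenchymal cells also carry, read 9.00, 9.02 and 9.25 on Fz1-null arrays and 9.01, 9.12 and 9.24 on double-null arrays. Both groups had their highest value in the array numbered 3, and the difference was 0.03 (SE 0.10).

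Transcription factors were higher by mean in 5 of 7 members, with a median of 0.06. All 7 were higher in the pair numbered 2, 5 in the pair numbered 1 and 2 in the pair numbered 3. Without double-null array 2, 4 of the 7 were higher by mean, and without the pair numbered 2 the median was -0.03. Sox7 read 8.48, 8.41 and 8.18 on Fz1-null arrays and 8.54, 8.67 and 8.43 on double-null arrays. It was higher in each pair, with a difference of 0.19 (SE 0.11, 95% interval -0.06 to 0.44), while its dim second probe set, at 5.12 and 5.13, differed by 0.01 (SE 0.14).

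Sox17, the SoxF factor of arteries, read 7.74, 7.72 and 7.61 on Fz1-null arrays and 7.75, 8.01 and 7.66 on double-null arrays. By this probe set double-null array 2 alone stood out, and the difference was 0.12 (SE 0.11), and 0.02 without that array. On the dimmer Sox17 probe set that array was not apart. The pair numbered 2 there showed the smallest gap, 0.007, beside 0.21 in the pair numbered 1 and 0.05 in the pair numbered 3. Averaged over the arrays, the dimmer probe set came out 0.09 higher in double-null palates (SE 0.08). Sox18, which starts lymphatic fate, read 8.94, 8.96 and 9.32 on Fz1-null arrays and 9.10, 9.28 and 9.12 on double-null arrays. Its highest array was Fz1-null, and the difference was 0.09 (SE 0.12), and 0.03 without double-null array 2. Erg read 9.07, 8.97 and 8.83 on Fz1-null arrays and 8.85, 9.08 and 8.68 on double-null arrays. The groups overlapped, with a difference of -0.09 (SE 0.12) by this probe set and 0.11 (SE 0.12) by the other.

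Fli1 and Ets1, ETS factors that blood cells and mesenchyme also express, followed the array number more than the genotype. Fli1 read 9.01, 8.76 and 8.53 on Fz1-null arrays and 9.15, 8.92 and 8.34 on double-null arrays, the lowest values on the arrays numbered 3, and differed by 0.03 (SE 0.21). Ets1 differed by -0.01 (SE 0.11), with -0.12 to 0.04 over its 4 probe sets. Tal1, a factor of blood and endothelial precursors, differed by 0.06 (SE 0.08).

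ETS factors bind a GGAA core, so the promoters of the members were searched for CAGGAAG, a longer form of it, on both strands (CTTCCTG on the other). RefSeq promoters, from 250 bases before to 50 bases after a gene's start (GRCm38.p6), were listed for 16 of the 33 genes. The motif was in 6 of these 16 genes (37.5%), and in 14.8% of all 27025 genes listed. The 6 were Apln, Cd34, Egfl7, Emcn, Erg and Robo4. Shown are Cldn5 (chr16:18776597-18776896, plus strand) and Tek (chr4:94739039-94739338, plus strand), the members whose groups did not overlap, and Emcn (chr3:137340828-137341127, plus strand) and Robo4 (chr9:37401722-37402021, plus strand), which hold the motif, in capitals. The Emcn match is on the reverse strand and begins at position -174 from the start, and the Robo4 match is on the forward strand at -50.
Cldn5: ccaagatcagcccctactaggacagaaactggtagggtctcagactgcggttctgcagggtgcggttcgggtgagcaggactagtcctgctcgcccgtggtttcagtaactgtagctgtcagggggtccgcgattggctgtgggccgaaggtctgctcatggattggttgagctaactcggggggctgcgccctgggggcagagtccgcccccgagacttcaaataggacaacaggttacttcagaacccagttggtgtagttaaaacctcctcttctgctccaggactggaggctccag
Tek: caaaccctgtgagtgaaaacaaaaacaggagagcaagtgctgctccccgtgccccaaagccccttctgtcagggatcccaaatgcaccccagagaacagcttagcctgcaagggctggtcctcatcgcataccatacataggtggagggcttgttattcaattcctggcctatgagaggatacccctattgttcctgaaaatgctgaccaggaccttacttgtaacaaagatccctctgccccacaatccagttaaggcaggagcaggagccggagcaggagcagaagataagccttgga
Emcn: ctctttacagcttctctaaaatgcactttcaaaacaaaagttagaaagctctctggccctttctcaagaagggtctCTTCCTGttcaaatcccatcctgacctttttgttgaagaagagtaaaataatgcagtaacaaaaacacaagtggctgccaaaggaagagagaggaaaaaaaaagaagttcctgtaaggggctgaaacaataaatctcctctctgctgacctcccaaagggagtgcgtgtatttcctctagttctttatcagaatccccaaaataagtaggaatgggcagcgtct
Robo4: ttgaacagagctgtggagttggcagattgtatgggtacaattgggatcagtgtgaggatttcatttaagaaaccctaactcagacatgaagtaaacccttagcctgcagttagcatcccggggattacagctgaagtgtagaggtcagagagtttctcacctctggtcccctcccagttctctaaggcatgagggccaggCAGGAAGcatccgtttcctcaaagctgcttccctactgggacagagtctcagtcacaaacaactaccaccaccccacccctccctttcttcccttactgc
Although the Tek window holds the shorter core (as TTCC), neither Cldn5 nor Tek holds CAGGAAG or CTTCCTG in this window. By brightest probe set the 6 genes that do differed by -0.11 (Apln), 0.03 (Cd34), -0.02 (Egfl7), 0.02 (Emcn), -0.09 (Erg) and 0.03 (Robo4). A match is a description of the sequence and not a bound site.

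Secreted proteins and the enzyme Nos3 were split, with 3 of 6 higher by mean and a median of 0.03. Without the pair numbered 2, 4 of the 6 were higher, again with a median of 0.03. Vwf, the clotting glycoprotein that endothelial cells and megakaryocytes store, read 6.93, 7.28 and 6.96 on Fz1-null arrays and 6.93, 7.78 and 7.33 on double-null arrays. Double-null array 2 was the highest, and double-null array 1 matched the lowest Fz1-null array. Its 95% interval, -0.19 to 0.77 around 0.29 (SE 0.21), had the highest upper bound of the set. Megakaryocyte genes, 6 measured, had pair medians of 0.07, 0.01 and 0.09. In the pair numbered 2, where Vwf differed by 0.51, only 3 of the 6 were higher, Ppbp (0.27) and Pf4 (0.11) among them. Their part in the Vwf value was not tested.

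Egfl7, a matrix protein that guides vessel tubes, read 9.20, 9.12 and 9.04 on Fz1-null arrays and 9.03, 9.26 and 9.01 on double-null arrays. The groups overlapped, the difference was -0.02 (SE 0.09), and all 4 probe sets lay between -0.03 and -0.01. Mmrn2, the matrix partner of Clec14a, differed by -0.02 (SE 0.11), with its 3 dimmer probe sets at 0.001 to 0.08. Nos3, which makes nitric oxide, differed by 0.08 (SE 0.10) and was higher in all 3 pairs. Over the 14 members with several probe sets, all probe sets pointed 1 way for 10 genes, upward for 8 and downward for Aplnr and Egfl7.

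The arrays set how large a change could have been missed. In the fit without the block, the 95% interval lay within 1.5-fold in either direction for 32 of 33 genes, all but Vwf, and for 53 of 55 probe sets. The SE of Vwf was 0.21 in that fit and 0.10 with the pair as a block. Of all probe sets on the array 95.5% had such an interval. The median SD over the 3 arrays was 0.12 on Fz1-null arrays and 0.15 in double-null palates for endothelial genes, beside 0.10 and 0.12 for all genes, against a median size of difference of 0.08 and 0.05.

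**Figure D4:**
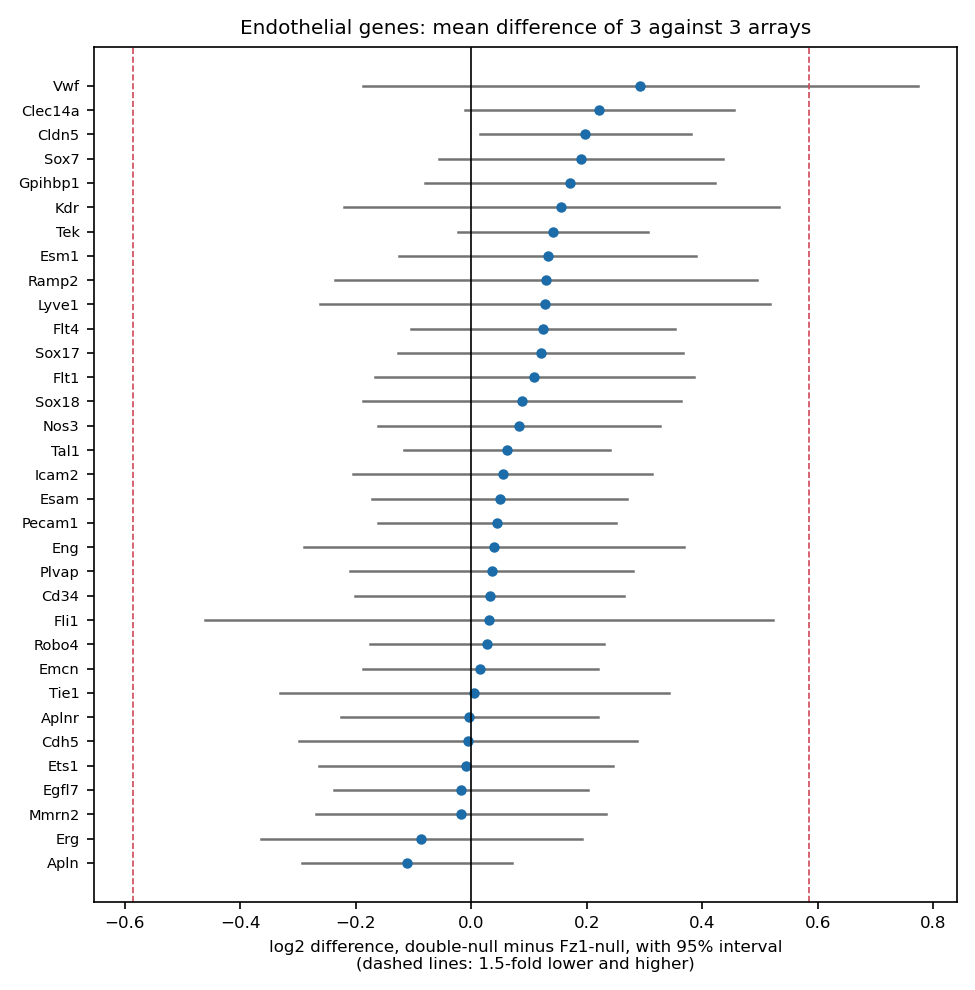
Mean log2 difference between 3 double-null and 3 Fz1-null arrays for each endothelial gene, with limma's unadjusted 95% interval as a bar and dashed lines at 1.5-fold lower and higher. Only the interval of Cldn5 leaves out 0, and only that of Vwf crosses a dashed line.

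Genes that steer vessel growth and the split into arteries and veins lay on either side of 0. Of 34 such genes (VEGF ligands, angiopoietins, Notch and ephrin genes, guidance receptors and others) 16 were higher by mean and 18 lower, with a median of -0.01, and 0 of their 77 probe sets passed with or without the block. In the pair numbered 2, 22 of 34 were higher. Vegfa, the main VEGF ligand, read 9.35, 9.28 and 9.44 on Fz1-null arrays and 9.39, 9.53 and 9.48 on double-null arrays, a difference of 0.11 (SE 0.08), with 0.25 in the pair numbered 2. Adgrl4, an adhesion receptor of endothelial cells, differed by 0.15 (SE 0.10). On the lower side Sema3e, a guidance ligand that repels sprouts, differed by -0.14 (SE 0.10), the Notch target Hey1 by -0.11 (SE 0.09), and Nrp2, a co-receptor for lymphatic VEGF, by -0.09 (SE 0.09).

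Other gene lists were also higher in the pair numbered 2. Hypoxia and glycolysis genes, Vegfa among them, had a median of 0.27 there, with 14 of 14 higher, and of 0.03 and 0.02 in pairs 1 and 3. Macrophage genes had a median of 0.15, with 12 of 13 higher, and Xist differed in that pair as described above. Pericyte and smooth muscle genes, which mark the cells around vessels, had pair medians of 0.01, 0.04 and 0.10. In the pair numbered 2, 6 of these 10 genes were higher, and only Rgs5 (0.54) and Higd1b (0.28) exceeded 0.20. Erythroid genes, from blood inside the vessels, had pair medians of 0.21, 0.08 and -0.002, the highest in the pair numbered 1. Mesenchyme genes lay at -0.05, -0.02 and -0.06, and 8 of 8 were lower by mean.

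Markers of other tissues also lay mostly to 1 side by mean, and 0 of their brightest probe sets passed the test with or without the block. Epithelial genes were lower by mean in 10 of 10, with a median of -0.21 and pair medians of -0.005, -0.24 and -0.53. Neural progenitor genes were higher in 7 of 8, with a median of 0.12 and pair medians of 0.19, 0.20 and 0.31. Skeletal muscle genes were higher by mean in 14 of 14, with pair medians of -0.14, -0.23 and 0.77. The part of oxygen supply, cell makeup, dissection or sex in the endothelial values was not tested.

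**Figure D5:**
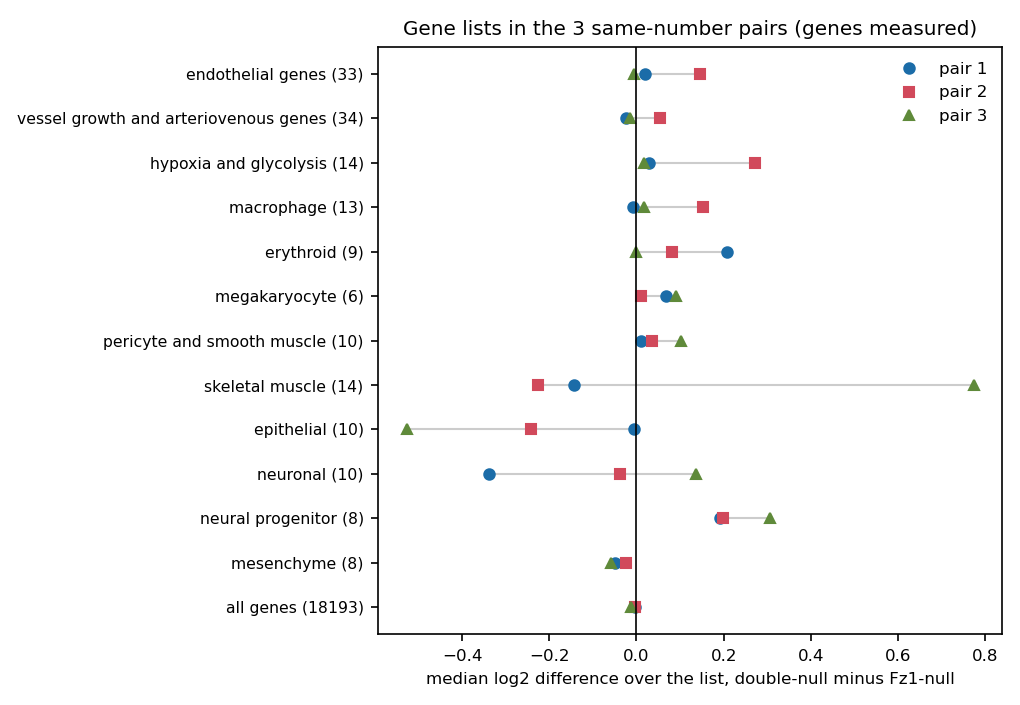
Median log2 difference in each pair for the endothelial genes, the vessel growth genes, markers of other cell types and all genes, with the number of genes measured in brackets. The squares of the pair numbered 2 stand right of the other pairs for endothelial (0.15), hypoxia (0.27) and macrophage genes (0.15), while muscle and epithelial genes are spread most by the pair numbered 3.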

How the data were processed

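The authors deposited log2 probe set values made with RMA (background correction, quantile normalisation, median polish), per the submitters' processing notes; its version is not given in the sources used here. Values ran from 2.83 to 14.7. Quantile normalisation would hide a shift shared by most transcripts. The authors also deposited a table with a log2 fold change (double-null subtracted from Fz1-null) and an unadjusted p-value per probe set, per the file headers, whose test is not named.

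The table held 45101 probe sets, of which 64 were Affymetrix controls and not tested. Symbols came from the platform annotation, updated by Entrez identifier to RefSeq GRCm38.p6 (34741 of 34945 single-symbol probe sets matched). Further Ramp2 probe sets shared with Vps25 were not used. The test was limma 3.58.1 in R 4.3.3 (lmFit, eBayes), genotype only, 3 against 3 arrays, two-sided, with Benjamini-Hochberg adjustment over all probe sets at 0.05. It was also run on simulated data, with changes larger than any member difference here and, for the main fit, no effect shared by a pair. That run does not tell how well differences as small as those of the members would be found. SE and 95% intervals are limma's, from the fit without the block. An exact permutation test of 3 against 3 cannot go below 0.1 and was not used.

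Deviations from group means correlated at 0.63, 0.44 and 0.63 between arrays numbered 1, 2 and 3, and on that basis, not from the labels, shared numbers were treated as pairs; a fit with the pair as a block stands beside the main one. A gene was described by its brightest probe set over all arrays. Members, lists and alternatives were chosen with earlier results of these data known. Array values are given for fixed markers, lymphatic and tip cell genes, and the 3 members with the smallest p in each direction; of the vessel growth list, the 3 smallest p in each direction are named, with array values for Prox1 and Vegfa. Further values (Fli1, Vwf, Pdpn, Rgs5, Higd1b, Ppbp, Pf4) and the promoters shown were chosen after their values were seen.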

Additional observations from a re-analysis of the deposited data

How the results depend on the processing

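No endothelial or vessel growth probe set passed an adjusted p of 0.05 in any setting run: probe sets above the median, trended or robust eBayes, the replicate block, the block without each pair, repeated quantile normalisation, median centring, array weights, log2 of the value plus 32, without each array, genes tested by their brightest probe set or by an average of their probe sets, a threshold of 0.1, or the deposited p-values with adjustment (added after the data were seen). Leaving out any array gave 0 to 0 such calls, and the replicate block 0. Over all probe sets, every setting without a block also gave 0 calls. The block gave 3 over all probe sets, again 3 without the pair numbered 2 or 3, and 93 without the pair numbered 1. The members' median difference of 0.05 (0.05 with the replicate block) ran from 0.02 to 0.12 without 1 array. Of 19 named members, 10 kept their sign in every setting and 9 did not, and none passed anywhere (smallest adjusted p 0.452). Without the pair numbered 2 in the block, Pecam1 (-0.027), Tie1 (-0.13), Emcn (-0.082), Sox18 (-0.025) and Cd34 (-0.0025) turned, and without the pair numbered 1 Cdh5 (0.12) and Egfl7 (0.057). Repeated quantile normalisation turned Cdh5 (0.022) and Egfl7 (0.010), median centring Tie1 (-0.00067), array weights Tie1 (-0.0094) and Egfl7 (0.0084), and the mean of probe sets Cdh5 (0.019) and Erg (0.013). Without 1 array the ranges that crossed 0 were -0.0040 to 0.12 for Pecam1, -0.13 to 0.13 for Cdh5, -0.11 to 0.16 for Tie1, -0.034 to 0.070 for Emcn, -0.19 to 0.011 for Erg, -0.064 to 0.28 for Lyve1, -0.024 to 0.11 for Cd34 and -0.097 to 0.029 for Egfl7. The cause was not tested. With 3 arrays a group, differences inside the printed intervals could not be resolved.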
